A study of Homo sapiens with 6 samples.

Results

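Interferon-stimulated effector genes encode the proteins with which a cell blocks viral RNA, viral translation and viral budding. A list of 52 such genes, without the sensors and the STAT and IRF factors that act above them, was looked up by gene symbol among the 28008 genes of the count table, and all 52 were found. Their expression was compared in DU-145-DR/tet-MUC1shRNA cells. DU-145 is a human prostate cancer line, and the DR cells were selected from it for growth in docetaxel. According to the study's methods these cells carry a doxycycline-inducible hairpin against MUC1, which encodes a transmembrane mucin. The treatment labels name the hairpin only for the DOX_positive samples and docetaxel resistance only for the DOX_negative samples, and the table headers write TR where the sample titles write DR, so the groups were taken from the DOX state in the titles. The 3 DOX_negative libraries were from vehicle cultures (0.1% DMSO per the study's methods), and the 3 DOX_positive libraries were from cultures given 500 ng/ml doxycycline (DOX) for 7 days. The comparison therefore addressed how effector transcripts differed when MUC1 was silenced. No DOX-treated line with a control hairpin was analysed here, so DOX itself, effects of 1 hairpin sequence on other transcripts and loss of MUC1 cannot be told apart.

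Interferons bind cell surface receptors, and the JAK1 and TYK2 kinases then phosphorylate STAT factors. With IRF9, these factors form a complex that binds the interferon-stimulated response element (ISRE) in the promoters of effector genes. Another element, the gamma-activated site (GAS), is bound by STAT dimers. Many effector genes are also expressed at a low level without added interferon, and a set of them is expressed in some tumor cells resistant to DNA-damaging treatment.

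The ISRE core was searched in RefSeq promoter windows (GRCh38.p14) that reach from 250 bases before to 50 bases after each transcript start. The letters searched were GAAA, any 2 bases and GAAA again, or on the other strand TTTC, any 2 bases and TTTC. A window was held for 44 of the 52 genes, and 31 of the 44 (70.5%) carried a match, against 4.38% of 27305 genes with a window. The following stretches of 30 bases, read 5′ to 3′ on the strand of the gene with the matched letters in capitals, are from 5 genes that fell with DOX and 3 that did not pass the test.
IFI44 at chr1:78649759-78649788: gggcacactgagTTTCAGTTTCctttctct
DDX60 at chr4:168318821-168318850, minus strand: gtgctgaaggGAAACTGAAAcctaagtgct
IFI6 at chr1:27672329-27672358, minus strand: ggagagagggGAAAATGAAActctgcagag
IFIT1 at chr10:89392510-89392539: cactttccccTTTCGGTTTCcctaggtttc
ISG15 at chr1:1013380-1013409: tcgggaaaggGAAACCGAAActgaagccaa
IFIT5 at chr10:89414513-89414542: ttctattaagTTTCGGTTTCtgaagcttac
TRIM14 at chr9:98119229-98119258, minus strand: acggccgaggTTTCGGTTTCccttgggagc
PLSCR1 at chr3:146544667-146544696, minus strand: cgggaaccggGAAAAGGAAAccgtgttgtg
These stretches lie upstream of a transcript start. The 10 matched letters of IFIT1, which fell with DOX, are the same as those of IFIT5 and TRIM14, which did not pass the test. The matches describe letters in a window and were not tested for binding.

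Totals were 15092691 to 23243713 counts per library, and 14292 genes passed the filter on low counts. Levels below are CPM, a gene's counts as a share of its library's total, after TMM scaling, with the same total set for each library. MUC1 stood at 21.3, 24.8 and 19.7 CPM in the DOX_negative libraries and at 3.27, 3.87 and 4.44 CPM in the DOX_positive libraries. The groups did not overlap, and the log2 fold change was −2.52 (SE 0.146, adjusted p = 4.47e-11 by edgeR's quasi-likelihood test with Benjamini-Hochberg adjustment, as for every adjusted p below unless another tool is named). The labels give cultures in triplicate without saying whether these were separate passages, so the p-values measure the spread between these libraries. Epithelial markers (EPCAM, KRT8, KRT18, CDH1 and KRT19) were present and all 5 were higher with DOX, with a summed 758 to 838 CPM in DOX_negative and 1444 to 1517 CPM in DOX_positive libraries. KLK3, which marks luminal prostate cells, had 0 counts in every library, against a floor of 3 counts that equals 0.131 to 0.202 CPM. Among 5 leukocyte markers, CD3E had 0 counts and only CD68 was called, higher with DOX. The summed level was 91.7 to 107 CPM and then 158 to 179 CPM. Nearly all of it was CD68 (91.4 to 106 CPM and then 158 to 179 CPM). PTPRC, CD14 and LYZ had at most 9 counts in any library. Fibroblast markers summed to 4.19 to 4.84 CPM and 4.01 to 5.59 CPM, and endothelial markers to at most 1.13 CPM. The part of these shifts in the results below was not tested.

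Effector transcripts were lower with DOX far more often than they were higher. Of the 52 genes, 39 passed the filter, and 17 of the 39 (43.6%) were called lower at an adjusted p under 0.05, where 13.7% of all tested genes were called lower. SP100 was the 1 gene called higher (2.56%), where 13.0% of all tested genes were called higher. The other 21 tested effectors were not called, 14 with a negative and 7 with a positive log2 fold change. The median log2 fold change was −0.32 over the 39 tested effectors and −0.0034 over all tested genes, and 31 of the 39 values were negative. The 3 DOX_positive libraries lay below the 3 DOX_negative libraries for 22 of the 39, against 20.2% of all tested genes. In a bulk sample, fewer cells that express a gene and less RNA per cell cannot be told apart. On the log2(TPM + 1) scale of the deposited TPM values, the median of all genes moved to −0.32, 6.77% of all calls were higher instead of 48.8%, and 7 effectors were called lower and 0 higher; relative to that shift the effectors' median was −0.24.

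**Figure D1:**
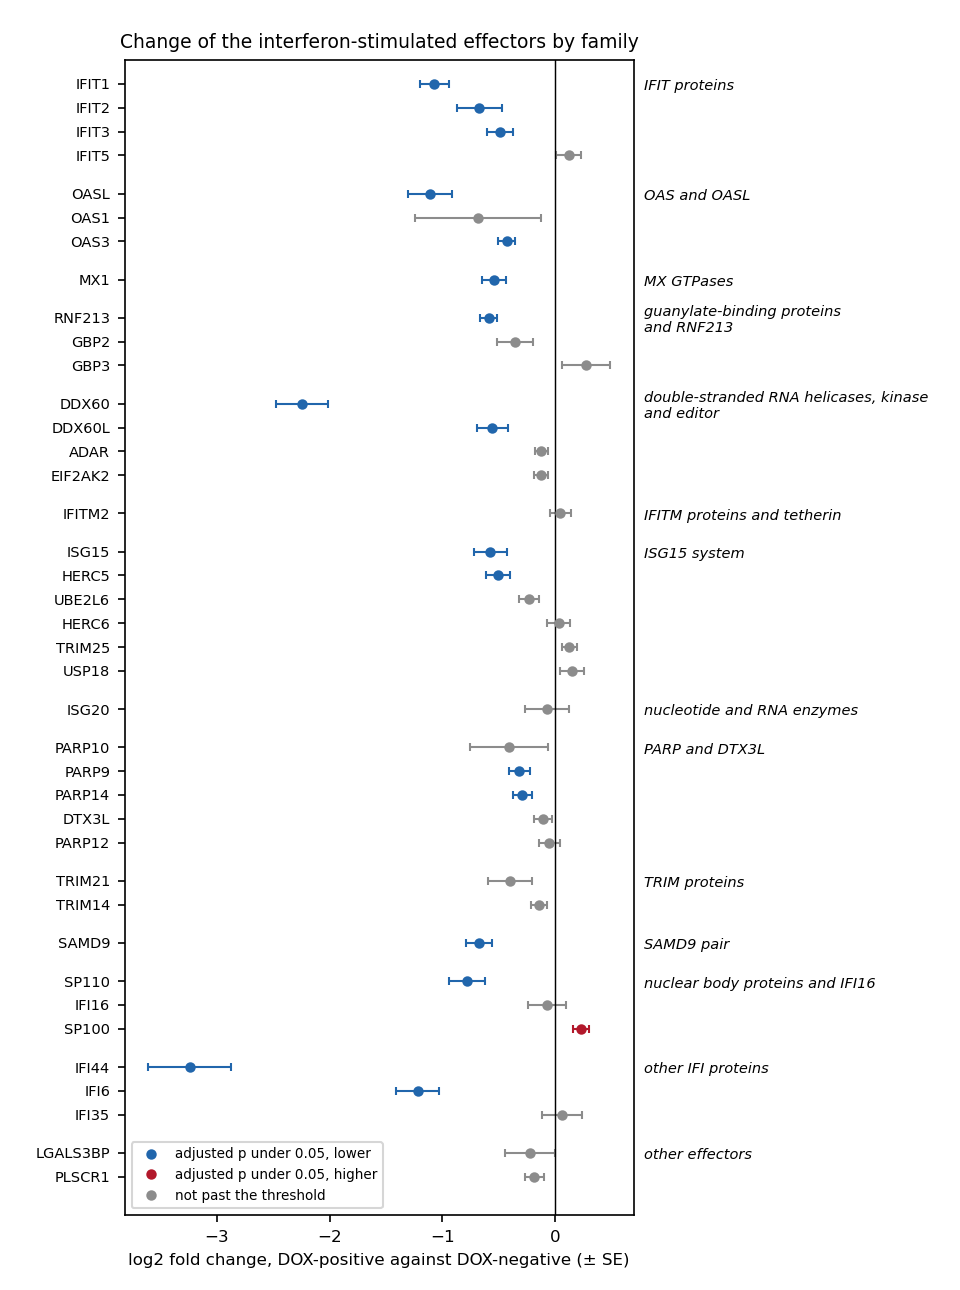
Log2 fold change (DOX_positive against DOX_negative, horizontal axis, with SE bars) of the 39 tested effectors by family (vertical axis); blue and red points passed an adjusted p of 0.05 and grey points did not. The blue points run from −3.24 (IFI44) to −0.29 (PARP14), and SP100 is the single red point.

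The largest decreases were in IFI44, DDX60 and IFI6, and 5 of the 17 lower genes fell by at least 1 on the log2 scale. IFI44, a cytoplasmic protein induced by type I interferon, stood at 2.53, 3.63 and 2.94 CPM in the DOX_negative libraries and at 0.392, 0.209 and 0.336 CPM in the DOX_positive libraries. These are 46, 71 and 59 counts against 9, 4 and 5 counts. The DOX_positive mean was 10.3% of the DOX_negative mean, and the log2 fold change was −3.24 (SE 0.369, adjusted p = 9.15e-07). The lowest DOX_negative library was thus far above the highest DOX_positive library. IFI6, a small membrane protein of the mitochondria and endoplasmic reticulum that limits cell death and flavivirus replication, stood at 10.0, 10.1 and 9.30 CPM and then at 3.88, 5.80 and 2.82 CPM. Its log2 fold change was −1.22 (SE 0.191, adjusted p = 5.59e-05), and its DOX_positive libraries spread more (SD 1.51 CPM) than its DOX_negative libraries (SD 0.447 CPM) without reaching them. IFI35, a partner of NMI in cytokine signalling, was in the same group of genes but not called (0.062, SE 0.178, adjusted p = 0.839).

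The helicase pair DDX60 and DDX60L was lower, whereas the double-stranded RNA kinase and editor were not called. DDX60, a DExD/H-box helicase that acts with RIG-I-like receptors on viral RNA, stood at 6.88, 5.93 and 5.47 CPM in DOX_negative and at 1.18, 1.51 and 1.14 CPM in DOX_positive libraries. Its log2 fold change was −2.24 (SE 0.228, adjusted p = 1.84e-07), which left 21.0% of the DOX_negative mean. Its neighbour and paralog DDX60L stood at 10.6, 11.1 and 10.4 CPM and then at 6.93, 7.21 and 7.73 CPM. That decrease was smaller (−0.56, SE 0.136, adjusted p = 0.00394), and the groups of both genes did not overlap. EIF2AK2, the kinase PKR that stops translation on double-stranded RNA, had a log2 fold change of −0.12 (SE 0.0628, adjusted p = 0.163). ADAR, which edits adenosine to inosine in double-stranded RNA, had −0.12 (SE 0.0590, adjusted p = 0.136). In both, the DOX_positive libraries lay below the DOX_negative libraries, by less than the test could call.

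Of the IFIT proteins, which bind the 5′ ends of foreign RNA and block its translation, 3 of 4 were lower. IFIT1, which recognises cap structures that lack 2′-O-methylation, stood at 16.3, 16.3 and 15.1 CPM in DOX_negative and at 7.02, 8.51 and 7.13 CPM in DOX_positive libraries. The log2 fold change was −1.07 (SE 0.129, adjusted p = 1.99e-06), and the groups were far apart. IFIT2, a partner of IFIT1 and IFIT3, stood at 14.4, 18.5 and 11.5 CPM and then at 6.19, 12.9 and 8.94 CPM (log2 fold change −0.67, SE 0.196, adjusted p = 0.0141). IFIT2 was the only one of the 17 lower genes whose groups overlapped. It did not pass without DOX_negative replicate 2 (−0.48, adjusted p = 0.102), without DOX_positive replicate 1 (−0.42, adjusted p = 0.0955) or in DESeq2 (adjusted p = 0.169). IFIT3, which stabilises IFIT1 on RNA, fell by 0.49 (SE 0.117, adjusted p = 0.00333). IFIT5, which binds 5′-triphosphate RNA, was not called (0.12, SE 0.109, adjusted p = 0.460), with 31.6 to 39.0 CPM in DOX_negative and 33.3 to 45.7 CPM in DOX_positive libraries. The IFIT genes are similar in sequence, and how the counting treated reads shared between paralogs was not stated.

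Among the oligoadenylate synthetases, which activate RNase L when they meet double-stranded RNA, OAS3 and the synthetase-like OASL were lower. OASL, which lacks synthetase activity and enhances RIG-I signalling, stood at 7.05, 6.75 and 5.37 CPM in DOX_negative and at 2.57, 3.45 and 2.89 CPM in DOX_positive libraries (log2 fold change −1.11, SE 0.196, adjusted p = 0.000222). OAS3, the long-RNA synthetase, fell by 0.43 (SE 0.0746, adjusted p = 0.000182). OAS1 had 5, 19 and 11 counts against 4, 11 and 6 counts, and its fold change of −0.68 had an SE of 0.557 (adjusted p = 0.398). OAS2 had 12, 8 and 5 counts against 3, 5 and 6 counts and did not pass the filter. At these counts the difference in OAS1 did not pass the test.

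MX1, a dynamin-like GTPase that traps viral nucleoproteins, stood at 22.9, 26.8 and 21.9 CPM in DOX_negative and at 15.8, 15.5 and 18.0 CPM in DOX_positive libraries. It fell by 0.54 (SE 0.110, adjusted p = 0.000775), and the groups did not overlap. Its paralog MX2, a capsid-binding restriction factor, had 4, 6 and 10 counts against 2, 1 and 1 counts and was not tested. RNF213, a giant E3 ligase with antimicrobial activity, stood at 188, 214 and 174 CPM and then at 116, 135 and 133 CPM. The log2 fold change of RNF213 was −0.59 (SE 0.0773, adjusted p = 6.37e-06). The guanylate-binding proteins, which attack pathogen-containing membranes, were not called. GBP2 stood at 6.94 to 7.31 CPM and then at 4.92 to 5.96 CPM, a difference in which the groups did not overlap but that did not pass (−0.36, SE 0.159, adjusted p = 0.104). GBP3 had a log2 fold change of 0.28 (SE 0.216, adjusted p = 0.376), and GBP1 had 6, 8 and 4 counts against 6, 1 and 1 counts.

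Of the 6 genes listed under the ISG15 system, the ubiquitin-like modifier and its main ligase were lower, and the other 4 were not called. ISG15, the modifier itself, stood at 8.81, 9.87 and 8.71 CPM in DOX_negative and at 6.49, 6.16 and 5.65 CPM in DOX_positive libraries (log2 fold change −0.57, SE 0.147, adjusted p = 0.00568). HERC5, the ligase that attaches ISG15 to new proteins, stood at 23.6, 21.0 and 22.0 CPM and then at 14.4, 15.1 and 17.5 CPM (−0.51, SE 0.109, adjusted p = 0.00131). Neither gene's groups overlapped. UBE2L6, the conjugating enzyme, had −0.23 (SE 0.0923, adjusted p = 0.0692) with groups that did not overlap. Among the omissions of 1 library, UBE2L6 passed only without DOX_positive replicate 2 (−0.27, adjusted p = 0.0450). It also passed with total counts as library size (−0.26, adjusted p = 0.0380). The deconjugating protease USP18, which also dampens receptor signalling, had 0.15 (SE 0.104, adjusted p = 0.316). TRIM25, a ligase that modifies RIG-I, had 0.13 (SE 0.0628, adjusted p = 0.140), and HERC6 had 0.031 (SE 0.101, adjusted p = 0.860).

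SP110 and SP100, nuclear body proteins encoded in the same cluster on chromosome 2, were called in opposite directions. SP110 stood at 7.76, 8.85 and 9.55 CPM in DOX_negative and at 4.62, 5.22 and 5.45 CPM in DOX_positive libraries, a log2 fold change of −0.78 (SE 0.158, adjusted p = 0.000759). SP100, a component of PML bodies, stood at 64.1, 61.1 and 60.0 CPM and then at 70.0, 74.7 and 72.9 CPM. SP100 rose by 0.23 (SE 0.0723, adjusted p = 0.0206), but the sign turned on the deposited log2(TPM + 1) scale (−0.15, adjusted p = 0.746). The call was also lost without DOX_negative replicate 3 (adjusted p = 0.0697), without DOX_positive replicate 3 (adjusted p = 0.0643) and with the replicate number as a block (adjusted p = 0.0571). IFI16, a nuclear DNA-binding protein, was not called (−0.073, SE 0.167, adjusted p = 0.796).

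SAMD9, a translation inhibitor that restricts poxviruses, stood at 20.6, 18.8 and 19.7 CPM in DOX_negative and at 11.5, 14.2 and 11.1 CPM in DOX_positive libraries. It fell by 0.68 (SE 0.118, adjusted p = 0.000189), and the groups did not overlap. Its paralog SAMD9L had 11, 9 and 5 counts against 4, 5 and 4 counts. In the PARP group, which modifies proteins with ADP-ribose, PARP9 fell by 0.32 (SE 0.0945, adjusted p = 0.0155) and PARP14 by 0.29 (SE 0.0810, adjusted p = 0.0106). The PARP9 call was lost without DOX_negative replicate 3 (adjusted p = 0.0925) and without DOX_positive replicate 3 (adjusted p = 0.0662), and the PARP14 call without DOX_positive replicate 3 (adjusted p = 0.0770). DTX3L, the ubiquitin ligase partner of PARP9, had −0.11 (adjusted p = 0.364), PARP10 had −0.41 (SE 0.348, adjusted p = 0.424) and PARP12 had −0.051 (adjusted p = 0.730).

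The remaining tested effectors did not pass. TRIM21, a cytosolic antibody receptor, had −0.40 (SE 0.195, adjusted p = 0.140), and TRIM14, an adaptor of mitochondrial antiviral signalling, had −0.14 (SE 0.0726, adjusted p = 0.155). The DOX_positive libraries lay below the DOX_negative libraries for both. PLSCR1, a membrane scramblase that blocks viral fusion, had −0.18 (SE 0.0848, adjusted p = 0.114), and the secreted glycoprotein LGALS3BP had −0.22 (SE 0.218, adjusted p = 0.494). IFITM2, which hinders virus entry from endosomes, had 0.048 (SE 0.0931, adjusted p = 0.753), and the exonuclease ISG20 had −0.069 (SE 0.194, adjusted p = 0.837).

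**Figure D2:**
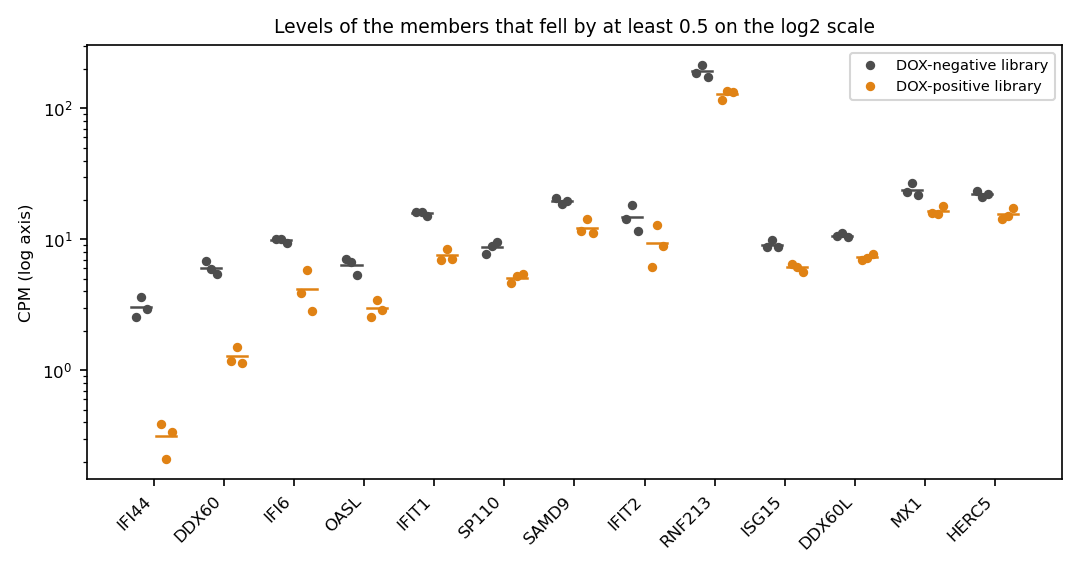
CPM (vertical log axis) of the 13 genes that fell by at least 0.5 on the log2 scale, with 1 point per library and a bar at the mean of the 3 libraries of a group. The orange DOX_positive points lie below the grey DOX_negative points for each gene except IFIT2, whose highest DOX_positive library (12.9 CPM) is above its lowest DOX_negative library (11.5 CPM).

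The genes that fell were not the most abundant effectors. On the TPM scale, which divides by transcript length and was rescaled after leaving out 5 short noncoding RNAs, the 17 lower genes had DOX_negative levels of 2.71 (DDX60) to 61.7 (ISG15), with a median of 11.9. The 21 genes not called ranged from 0.711 (OAS1) to 232 (ADAR), with a median of 21.5. IFITM2 (188), EIF2AK2 (105) and TRIM25 (80.5) were above ISG15 on this scale and were not called. DDX60 and IFI44 (5.41), with the largest decreases, lay under the median of the tested effectors (17.7).

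**Figure D3:**
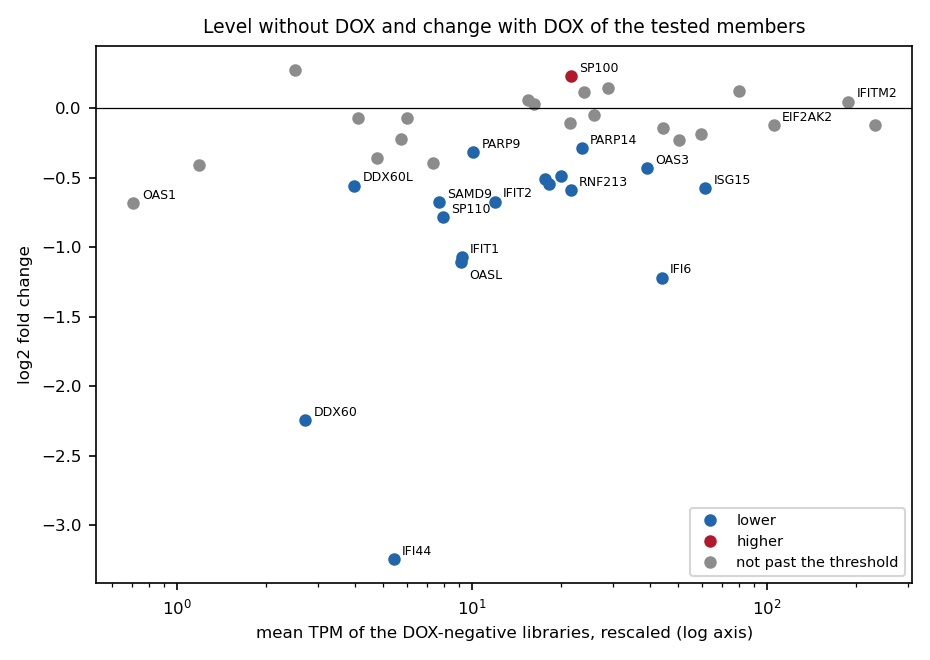
Log2 fold change (vertical axis) of each tested effector against its mean rescaled TPM in the DOX_negative libraries (horizontal log axis), with points coloured by the edgeR call. The most abundant genes, ADAR at 232 and IFITM2 at 188, are grey and near 0, and the 2 lowest points are IFI44 and DDX60.

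The 13 effectors under the filter were read as counts. RSAD2, the radical SAM enzyme viperin, had 11, 9 and 5 counts in DOX_negative and 0, 2 and 3 counts in DOX_positive libraries. IFITM3, an endosomal block to virus entry, had 10, 10 and 1 counts and then 1, 0 and 0 counts. When the filter was dropped from the edgeR fit, IFITM3 was called lower (adjusted p = 0.0143) and RSAD2 was not (adjusted p = 0.0755). The IFITM3 call rests on DOX_negative replicates 1 and 2, as DOX_negative replicate 3 had 1 count. IFI27, a mitochondrial and nuclear envelope protein, had 9, 7 and 3 counts against 6, 0 and 2, and CMPK2, a mitochondrial nucleotide kinase, had 10, 5 and 8 counts against 9, 4 and 15. IFITM1, XAF1, EPSTI1, IFI44L and BST2, which encodes tetherin, had at most 4 counts in any library. The 13 genes together summed to 75, 69 and 44 counts in DOX_negative and to 36, 21 and 37 counts in DOX_positive libraries, or 4.13, 3.53 and 2.19 CPM and then 1.57, 1.10 and 2.49 CPM. These summed levels overlapped between the groups.

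Many effectors lie near a paralog, and 30 of the 52 fell into 12 clusters with gaps of at most 200000 bases (GENCODE 29, GRCh38). The ratio of 2 genes in the same library does not depend on the scaling of that library. For 9 pairs of tested effectors that follow each other in a cluster with no other effector between them, written with the gene of the lower fold change first, the log2 ratio was compared between the groups by a two-sided exact permutation test, which cannot go below p = 0.1 with 3 against 3 libraries. The ratios of 6 pairs did not overlap between groups (exact permutation p = 0.1 each, 0.15 after Benjamini-Hochberg adjustment over the 9). Among 10555 pairs of adjacent tested protein-coding genes, 41.1% of ratios did not overlap in either direction, so the count of 6 is given as a description. On chromosome 4, the DDX60 to DDX60L log2 ratio was −0.62, −0.90 and −0.93 in DOX_negative and −2.56, −2.25 and −2.76 in DOX_positive libraries, a change of −1.71. On chromosome 10, where IFIT2, IFIT3, IFIT1 and IFIT5 follow each other from position 89283694 to 89421001, the ratio of IFIT1 to IFIT5 changed by −1.19 and that of IFIT1 to IFIT3 by −0.58. The libraries of the groups did not overlap in these ratios. SP110 to SP100 changed by −1.01, HERC5 to HERC6 by −0.53 and PARP9 to DTX3L by −0.21. The ratios of IFIT2 to IFIT3, OAS1 to OAS3 and PARP14 to DTX3L overlapped between the groups. Exons of PARP9 and DTX3L, of CMPK2 and RSAD2, of SP110 and SP140 and of IFIT2 and LIPA overlap on opposite strands, and those of IFITM1 and IFITM2 on the same strand. The kit kept strand, but the strand setting of the counting was not stated, so reads in these overlaps may be split between the genes.

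**Figure D4:**
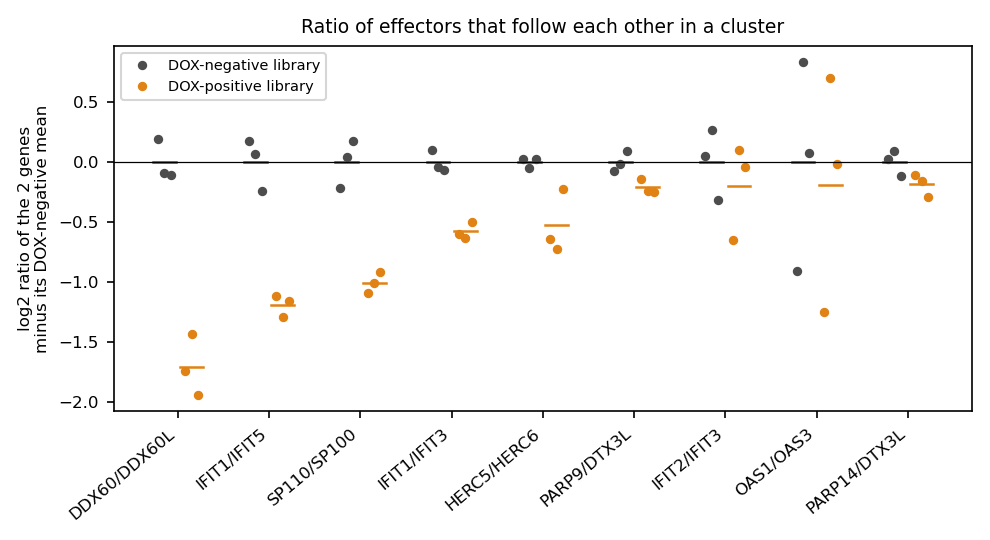
Log2 ratio of 2 effectors that follow each other in a cluster, minus its DOX_negative mean (vertical axis) for 9 pairs (horizontal axis), with 1 point per library and a bar at each group mean. Each pair is written with the gene of the lower fold change first, so the downward direction follows from that order. The orange DOX_positive points lie apart from and below the grey DOX_negative points in 6 pairs, most for DDX60/DDX60L, whose mean changed by −1.71.

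Among DOX_positive libraries, replicate 2 had the highest level for 10 of the 17 lower genes and for 23 of all 39 tested effectors. Among DOX_negative libraries, replicate 2 had the highest for 11 of the 17 and for 21 of the 39. The median of the 17, as log2(CPM + 0.5) minus the DOX_negative mean, was −0.016, 0.052 and −0.062 in the DOX_negative and −0.72, −0.54 and −0.64 in the DOX_positive libraries. That measure describes genes chosen for being lower. Over all 39 tested effectors the median was −0.015, 0.044 and −0.029 in the DOX_negative and −0.30, −0.17 and −0.27 in the DOX_positive libraries, and the groups did not overlap.

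Above the effectors, 3 receptor chains and 2 IRF factors were called lower. Of 38 other genes of the pathway, 29 passed the filter, with 5 (17.2%) called lower and 2 (6.90%) higher, where 13.7% and 13.0% of all tested genes were called. The lower share was thus near that of all genes, and its count moved to 9 with total counts as library size and to 1 on the deposited TPM scales. Of the interferon genes, 7 of 8 had 0 counts in every library. IFNE, an epithelial type I interferon, had 6, 10 and 9 counts against 15, 11 and 16 (0.78, SE 0.463, adjusted p = 0.225). A count of 0 allows up to 0.131 to 0.202 CPM per library.

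Of the 6 receptor chains, 3 were called lower, and these included a chain for each type of interferon. IFNGR1, the ligand-binding chain for interferon-gamma, stood at 58.2, 51.3 and 64.0 CPM in DOX_negative and at 32.1, 32.2 and 30.8 CPM in DOX_positive libraries (−0.87, SE 0.0885, adjusted p = 1.90e-07). IFNAR2, the high-affinity chain for type I interferon, fell by 0.48 (SE 0.0737, adjusted p = 4.72e-05), from 69.4 to 75.0 CPM down to 50.9 to 53.6 CPM. IFNLR1, the chain specific for interferon-lambda, fell by 0.52 (SE 0.158, adjusted p = 0.0177), a call lost without DOX_negative replicate 1 (adjusted p = 0.0853), DOX_negative replicate 2 (adjusted p = 0.0776) or DOX_positive replicate 1 (adjusted p = 0.0768). The partner chain IFNAR1 was at 247 to 271 CPM and at 256 to 269 CPM, with a log2 fold change of 0.018 (adjusted p = 0.868). IFNGR2 had −0.17 (adjusted p = 0.0826). IL10RB, also among the receptor chains, had −0.21 (adjusted p = 0.142), with groups that overlapped. JAK1, the kinase shared by these receptors, was higher at 232, 236 and 244 CPM than at 176, 176 and 178 CPM (0.43, SE 0.0599, adjusted p = 1.44e-05).

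Of the transcription factors, IRF9 and IRF2 were lower, and STAT2 and IRF1 were not called. IRF9, which gives the ISRE-binding complex its DNA contact, stood at 12.7, 15.4 and 9.65 CPM in DOX_negative and at 8.89, 7.78 and 8.74 CPM in DOX_positive libraries (−0.57, SE 0.155, adjusted p = 0.00862). The groups of IRF9 came close, and the call was lost without DOX_negative replicate 2 (−0.40, adjusted p = 0.0798). STAT2 had 0.026 (SE 0.0857, adjusted p = 0.864). IRF2, which competes with IRF1 for the same sites, fell by 0.50 (SE 0.120, adjusted p = 0.00345), and IRF1 had −0.051 (SE 0.124, adjusted p = 0.810). SOCS3, a feedback inhibitor of JAK kinases, rose by 0.39 (SE 0.123, adjusted p = 0.0216), but its sign turned on the deposited log2(TPM + 1) scale (−0.016). Its call was lost without DOX_negative replicate 2 (adjusted p = 0.0593) or 3 (adjusted p = 0.0832) and without DOX_positive replicate 1 (adjusted p = 0.131) or 3 (adjusted p = 0.0566). Of 10 sensors and adaptors, which include RIG-I, MDA5, cGAS and STING, 9 were tested and 0 called by edgeR or by DESeq2, with 3 at an unadjusted p under 0.05 by edgeR.

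**Figure D5:**
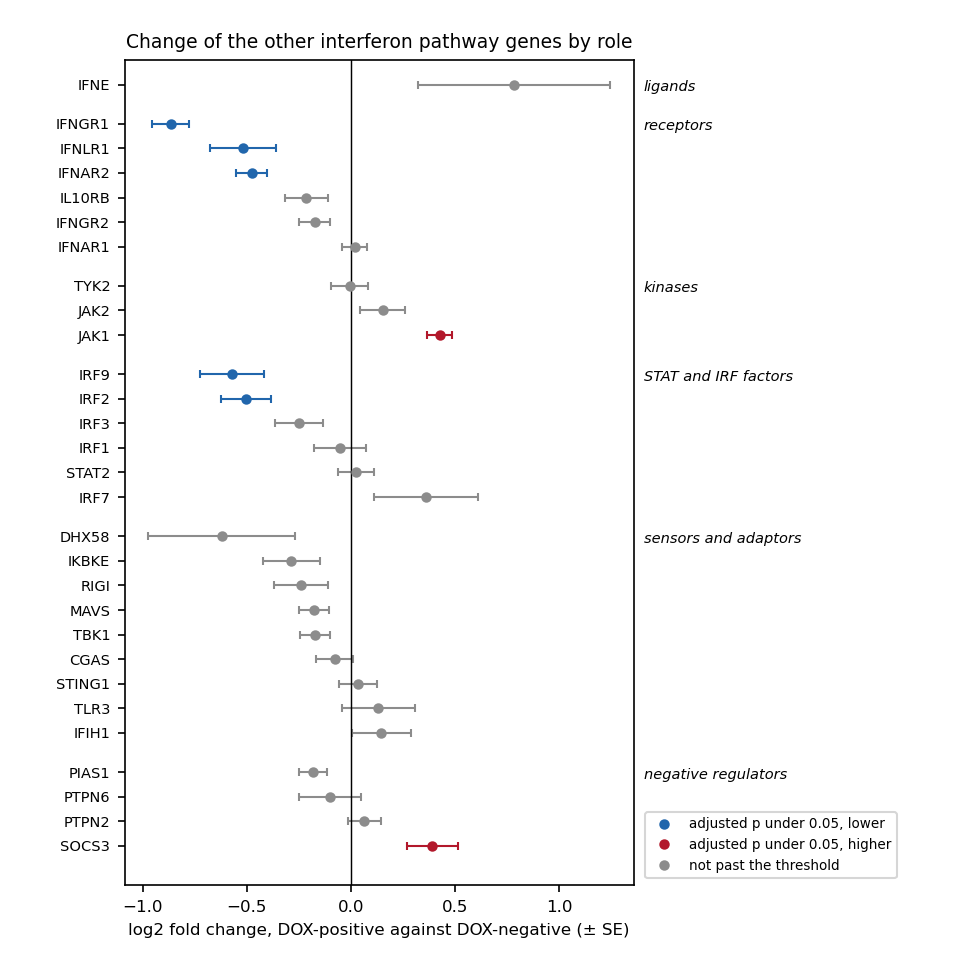
Log2 fold change (DOX_positive against DOX_negative, horizontal axis, with SE bars) of the 29 tested ligands, receptors, kinases, factors, sensors and negative regulators (vertical axis), coloured by the edgeR call. IFNGR1 has the most negative value (−0.87), and JAK1 and SOCS3 are the red points.

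Promoter letters were also set beside the calls. The ISRE core was in the window of 13 of the 15 lower effectors with a RefSeq window (86.7%), of 10 of 17 effectors not called (58.8%) and of 8 of 11 not tested (72.7%). Of the lower genes, RNF213 and SP110 had no match in these windows. IFIT2 and OASL had no RefSeq window and were not searched. Among 1475 genes called lower that were not on the list, 3.66% had the core, against 3.90% of all tested genes. The GAS letters TTCNNNGAA were in 12 of 44 effector windows (27.3%), in 4 of 15 lower effectors (26.7%) and in 9.38% of all genes with a window. These shares are given without a test.

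A 7-letter run, ATCAGTA, had been picked out in an earlier look at 3′ UTRs in these same data. In GENCODE 29 it was in the 3′ UTR of 21.5% of genes called lower, 7.43% of genes called higher and 8.05% of genes not called. Among the 17 lower effectors, 2 held it (DDX60 and SAMD9) and 15 did not, and IFIT5 and TRIM25 held it among those not called. IFI44, IFI6, OASL and IFIT1 were among the 15 without it, with 3′ UTRs of 267, 317, 1450 and 276 bases. The median 3′ UTR was 640 bases in the lower effectors. It was 1512 bases in all genes called lower and 1029 bases in genes not called. The shares were not adjusted for this length, and the part of the run in the decreases was not tested.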

How the data were processed

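Poly(A) RNA libraries (TruSeq Stranded mRNA) of 3 DOX_negative and 3 DOX_positive cultures were used. Counts per gene were deposited as raw values and TPM was deposited by the authors per gene length and library; the submitters' notes name STAR, DESeq2 and GRCh38, and the annotation, versions and strand setting of the counting are not given in the sources used here. Counts (15092691 to 23243713 per library) were filtered with filterByExpr, scaled by TMM and fitted with edgeR 4.0.16 (quasi-likelihood, Benjamini-Hochberg, threshold 0.05) in R 4.3.3 over 14292 genes. The fit was tested on simulated data. Full statistics and the value in each library are given for effectors with an adjusted p under 0.05 and a log2 fold change of at least 0.5 in size, and counts for effectors under the filter with at least 5 counts in a library. Other effectors are given by fold change; pathway genes are named where called, with STAT2, IRF9 and IRF1 in any case. 2 genes of the fixed lists are not reported here, and the counts leave them out. SP100 per library, GBP2, IFIT5 and the uncalled pathway genes besides STAT2 and IRF1 were named after their values were seen. The genes and lists were chosen with earlier results of these data known. Motifs were searched in RefSeq promoter windows; 8 effectors had no entry. RIGI and STING1 were matched by older symbols. Alternatives used DESeq2 1.42.0 and limma 3.58.1 on log2(TPM + 1) or log2(TPM + 0.1), other scalings and filters, thinned counts, a replicate block and omission of each library. Same-numbered libraries correlated at −0.070, −0.14 and −0.037 in their deviations from the group means, so the numbers were not taken as pairs. Floors cover counting error only, whereas the SEs come from the edgeR fit and include the spread between libraries.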

Additional observations from a re-analysis of the deposited data

How the results depend on the processing

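Of the 17 effectors called lower, 5 (IFIT1, OASL, DDX60, ISG15 and IFI6) passed in all 16 alternatives, IFI44 passed in each except the one that required at least 10 counts in every library, where it was not tested, and 0 changed sign in any; most losses were on the deposited TPM values. The lower count was 16 in DESeq2 and 17 with the replicate number as a block, and 16 to 19 when 1 library was left out. It was 7 on log2(TPM + 1), 6 on log2(TPM + 0.1) and 16 on TPM rescaled without 5 short noncoding RNAs; the cause was not tested. On rescaled TPM the calls of IFIT2 (adjusted p = 0.0730), PARP9 (0.0647) and PARP14 (0.05002) were lost, and UBE2L6 (0.0278) and PLSCR1 (0.0499) were called lower. The 1 effector called higher became 0 under the replicate block and on each TPM scale, and 0 to 1 with 1 library left out. Pathway genes called lower were 9 with total counts as library size, 1 on both deposited TPM scales and 4 to 6 with 1 library left out; those called higher were 0 on both deposited TPM scales, 1 on rescaled TPM and 1 to 2 with 1 library left out. MUC1 was called lower in every alternative, with log2 fold changes of −2.85 to −2.36. The replicate block changed no other effector or pathway call named above. Reversals were in genes that were not called, apart from SP100 and SOCS3. On log2(TPM + 1) and log2(TPM + 0.1) the fold changes turned to −0.26 and −0.28 for IFIT5, −0.082 and −0.11 for GBP3, −0.34 and −0.35 for IFITM2, −0.33 and −0.37 for HERC6, −0.26 and −0.27 for TRIM25, −0.22 and −0.24 for USP18, −0.15 and −0.16 for SP100, −0.27 and −0.30 for IFI35, −0.34 and −0.36 for STAT2, and −0.016 and −0.012 for SOCS3. HERC6 was −0.0041 and STAT2 −0.011 with total counts, HERC6 −0.0014 on rescaled TPM, and IFITM2 −0.0063 and HERC6 −0.015 on thinned counts. With 1 library left out, the fold change turned in part of the range −0.038 to 0.21 for IFIT5, −0.027 to 0.10 for IFITM2, −0.045 to 0.096 for HERC6, −0.24 to 0.058 for ISG20, −0.15 to 0.041 for IFI16, −0.079 to 0.21 for IFI35, −0.059 to 0.076 for STAT2 and −0.10 to 0.00028 for IRF1. Effectors such as OAS1, with 4 to 19 counts per library, are limited by depth.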
